A study of Mus musculus with 20 samples.

Results

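The alpha subunits of heterotrimeric G proteins were examined in mouse liver as a set of 10 genes, Gnaq, Gna11, Gna14, Gna15, Gnai1, Gnai2, Gnai3, Gnas, Gna12 and Gna13. They were chosen by name, with earlier results of these data known, and found through the Ensembl identifiers that the GENCODE M21 annotation gives for these symbols. All 10 were among the 21780 genes of the count table and passed the filter that left 15522 genes for testing. The table holds RNA-seq counts from the livers of 20 male C57BL/6J mice, 5 in each of 4 groups, and each library comes from a different mouse. Every mouse ate a high-fat diet (HFD, 42% of calories from fat) for 12 weeks, beginning at 8 weeks of age. After 2 weeks of diet each mouse received a single oral gavage, and the livers were taken 10 weeks later. HFD control mice received corn oil alone. HFD + Aroclor mice received Aroclor 1260, a commercial mixture of largely non-dioxin-like polychlorinated biphenyls (PCBs), at 20 mg/kg. HFD + PCB 126 mice received PCB 126, a dioxin-like congener that activates the aryl hydrocarbon receptor, at 20 ug/kg. HFD + Aroclor + PCB 126 mice, called the combined exposure here, received both. No group was fed a low-fat diet, so every value below belongs to livers of HFD-fed mice. Whole liver was measured, and fewer cells of a type and less RNA per cell cannot be told apart in such samples. The defining hepatocyte markers were abundant in all libraries, with 5 listed genes summing to 69078 to 100277 CPM, which are counts scaled to the size of the library.

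A G protein alpha subunit binds GDP at rest, exchanges it for GTP when a receptor on the cell surface is engaged, and then releases the beta-gamma pair and acts on an enzyme or exchange factor until it hydrolyses the GTP. The alpha subunits fall into families by what they act on: Gs raises cyclic AMP through adenylyl cyclase, Gi lowers it, Gq activates phospholipase C beta and calcium release, and G12/13 acts through guanine nucleotide exchange factors of small GTPases. In liver, glucagon acts mainly through Gs and vasopressin, angiotensin and alpha-1 adrenergic agonists act through Gq, so that glucose output is under the control of both.

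Several of these genes are paralogs that encode very similar proteins with different codons. Of 359 aligned codons of Gnaq and Gna11, 320 encode the same residue, and 132 of those use a different codon. Where the third base of such a codon differs, Gnaq has A or T and Gna11 has G or C in 72 cases, and the opposite holds in 22. For Gnai3 and Gnai2, 302 of 354 aligned codons encode the same residue, 160 of them with a different codon, and the corresponding counts are 109 and 25. For Gna13 and Gna12, 243 of 372 aligned codons encode the same residue and the counts are 60 and 16. The following stretch of 20 codons encodes identical residues in Gnaq and Gna11, and was taken where this pair differs at the most bases within a coding exon. It is shown because sequences that encode the same residues differ in base composition between the paralogs. Capitals mark the bases that differ between the paralogs. The stretch lies in a single coding exon of each gene on GRCm38, at chr19:16332114-16332173 (plus strand) for Gnaq and chr10:81532428-81532487 (minus strand) for Gna11.
Gnaq: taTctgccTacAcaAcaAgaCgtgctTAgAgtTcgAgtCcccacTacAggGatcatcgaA
Gna11: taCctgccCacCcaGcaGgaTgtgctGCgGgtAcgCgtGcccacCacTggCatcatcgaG

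Between Gnaq and Gna11, 16 of the 60 bases differ, and 13 of the 16 are G or C in Gna11 against 3 in Gnaq. The GC content of the stretch is 48.3% in Gnaq and 65.0% in Gna11. Over the whole coding sequences the difference is smaller, with 49.8% in Gnaq and 55.6% in Gna11. The longest run of identical bases between the main transcripts of any pair of members was 38, in Gnaq and Gna11, which is shorter than the 75-cycle reads, so few reads could belong to both.

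The same split runs through the whole transcripts. The GC content of all annotated exons merged was 41.7% for Gnai3, 42.6% for Gnai1, 46.3% for Gna13, 47.0% for Gnaq and 49.2% for Gna14. It was 55.1% for Gnai2, 57.1% for Gna11, 57.4% for Gnas, 58.2% for Gna12 and 58.8% for Gna15. No member lies between 49.2% and 55.1%, and the Gq, Gi and G12/13 families each have members on both sides of that gap. In the 3' untranslated region the GC content was 42.0% for Gnaq and 55.0% for Gna11, 38.7% for Gnai3 and 55.3% for Gnai2, and 43.9% for Gna13 and 55.5% for Gna12. On the GRCm38 annotation, Gnaq (chr19:16132831-16387463) and Gna14 (chr19:16435762-16610820) are neighbours on the plus strand of chromosome 19, and Gna11 (chr10:81528724-81545190) and Gna15 (chr10:81502306-81524225) are neighbours on the minus strand of chromosome 10. Each of these neighbouring pairs therefore holds members of like GC content, and Gnaq and Gna14 belong to the low-GC side while Gna11 and Gna15 belong to the high-GC side.

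Levels between genes were compared as FPKM, which is CPM divided by the length of the merged exons in kilobases, over the 5 mice of a group. In HFD control the order began with Gnas, the Gs alpha gene, at 47.5 ± 6.28 FPKM (SD, n = 5), and Gna12, a gene of the G12/13 family, at 40.6 ± 6.28. The ranges of these members over the 5 mice overlapped, at 41.0 to 55.7 and 31.4 to 48.2. Gnas has alternative first exons that lengthen its merged exons to 11186 bases, so its value per length is a low estimate. Gnai3 at 22.6 ± 4.61 and Gnai2 at 21.1 ± 3.49, which encode inhibitory subunits, came next with overlapping ranges, and neither range reached that of Gna12. Gna11 followed at 10.8 ± 1.71 FPKM, with no overlap with its neighbours in the order. Gna13 was at 4.60 ± 0.794, Gnaq at 2.97 ± 0.416 and Gnai1 at 2.96 ± 1.08. The range of Gnai1 overlapped with those of both Gnaq and Gna13. Gna14, a Gq-family gene, was at 1.80 ± 0.582 and overlapped with both Gnaq and Gnai1. Gna15, known mainly from blood cells, was lowest at 0.177 ± 0.0589 FPKM, from 3 to 18 counts in each of the 20 libraries, a depth at which only large changes could be seen. Within the Gq family of these livers the Gna11 transcript thus had the largest level per length, 10.8 FPKM against 2.97 for Gnaq. With the combined exposure the order changed in 1 place, with Gnai3 at 33.1 ± 2.25 above Gna12 at 31.2 ± 6.93, and their ranges overlapped.

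With the combined exposure, 8 of the 10 members passed an adjusted p under 0.05 against HFD control by the quasi-likelihood test of edgeR, two-sided and adjusted over 15522 genes after Benjamini and Hochberg. Gnaq, Gna14, Gnai3 and Gna13 were higher, and Gna11, Gnai2, Gnas and Gna12 were lower. The background in this comparison is high, since 32.8% of all genes tested passed, 15.8% as higher and 17% as lower. The members' median log2 fold change (log2FC) was 0.03 and that of all genes tested was -0.00096, so the family moved in both directions around a centre near that of all genes. The 4 members that rose have a GC content of 41.7% to 49.2% and the 4 that fell have one of 55.1% to 58.2%. Gnai1 (42.6%) and Gna15 (58.8%), which did not pass, had values on the same sides, with a log2FC of 0.50 and -0.32. With the single exposures none of the 10 members passed, against 0% of all genes for Aroclor and 0.116% for PCB 126. The 5 members of each side lay on opposite sides of 0 with the combined exposure, and on each side the genes belong to Gq, Gi and G12/13 families alike. All 3 comparisons with HFD control share the same 5 control mice. With 1 mouse left out, the count of members past the threshold with the combined exposure was 3 without control replicate 1, 4 without combined replicate 4 or 5 and 5 without control replicate 3 or 5, where 3887 to 4749 of all genes were called against 5089 with all mice. Of 10 such fits, Gnaq, Gnai3 and Gnas passed in 10, Gnai2 in 7, Gna13 in 6, Gna12 in 5, and Gna11 and Gna14 in 4. Fitted on these 10 libraries alone, without the spread of the other groups, 4 members and 4143 genes passed.

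**Figure D1:**
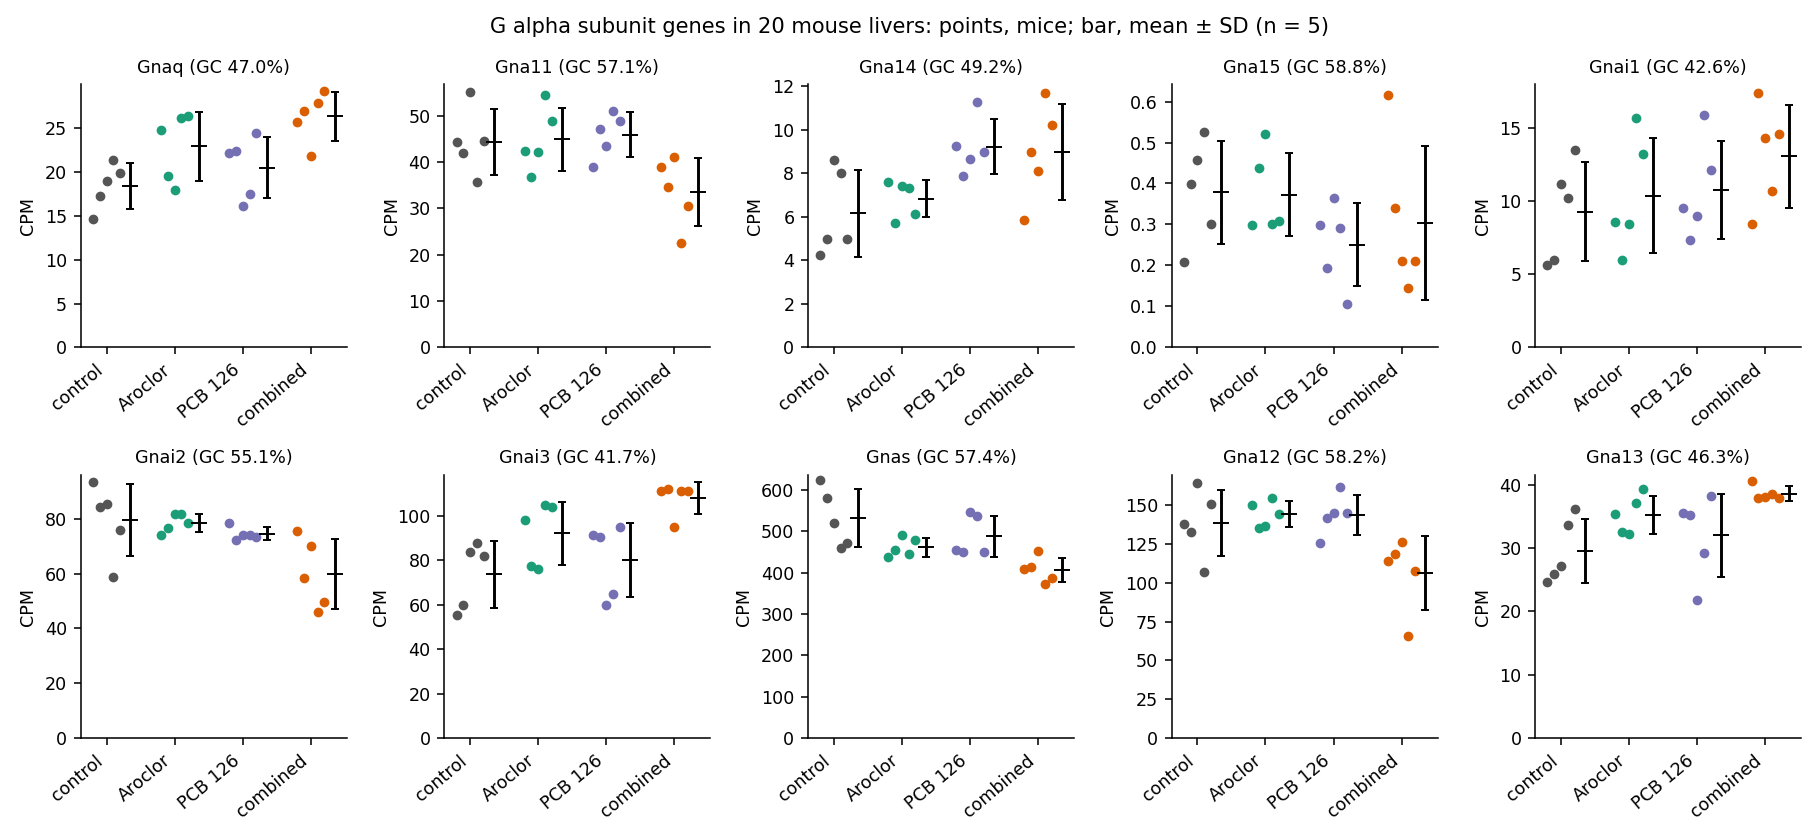
Level of each G alpha subunit gene in CPM (linear axes from 0), with 1 point per mouse and the mean ± SD of 5 mice per group. Gnaq, Gnai3 and Gna13 lie higher in each combined mouse than in each control mouse and Gnas lies lower, while the other members overlap between these groups.

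The Gq family gene Gnaq had 14.6, 17.2, 18.9, 21.3 and 19.9 CPM in the HFD control mice and 25.7, 27.0, 21.9, 27.8 and 29.2 CPM in the combined mice. The lowest combined mouse was above the highest control mouse, and the difference was a log2FC of 0.52 ± 0.14 (SE, adjusted p = 0.00723 in edgeR). With Aroclor the mice had 17.9 to 26.4 CPM (median 24.8), with a log2FC of 0.32 ± 0.14 and an adjusted p of 0.253 in edgeR. With PCB 126 they had 16.2 to 24.4 CPM (median 22.2), with a log2FC of 0.16 ± 0.14.

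Its paralog Gna11, which acts on the same phospholipases, had 44.3, 41.9, 55.1, 35.7 and 44.6 CPM in HFD control and 39.0, 34.7, 41.0, 22.5 and 30.6 CPM in the combined mice. The groups overlapped, and combined replicates 2, 4 and 5 were below each control mouse. The log2FC was -0.40 ± 0.15 (adjusted p = 0.0401 in edgeR), against 0.02 ± 0.15 with Aroclor and 0.05 ± 0.15 with PCB 126. Between the paralogs, the ratio of Gnaq to Gna11 in CPM was 0.330, 0.411, 0.343, 0.598 and 0.445 in the control mice and 0.659, 0.778, 0.533, 1.24 and 0.957 in the combined mice, so that Gnaq counts reached those of Gna11 in 1 of 5 combined mice. The ratio in Aroclor mice was 0.425 to 0.585 and in PCB 126 mice 0.342 to 0.569, both within the control range of 0.330 to 0.598.

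Gna14, another Gq-type subunit gene, was the single member with an unadjusted p under 0.05 with PCB 126. It had 4.23, 4.99, 8.62, 8.03 and 4.99 CPM in HFD control, 9.27, 7.89, 8.67, 11.3 and 8.97 CPM with PCB 126 and 5.85, 8.99, 8.12, 11.7 and 10.2 CPM with the combined exposure. The 3 control mice near 4 to 5 CPM lay below each PCB 126 mouse, and the 2 higher control mice lay within the PCB 126 range. The log2FC was 0.58 ± 0.19 with PCB 126 (adjusted p = 0.191 in edgeR, unadjusted 0.00667) and 0.55 ± 0.19 with the combined exposure (adjusted p = 0.0353 in edgeR). With Aroclor alone it was 0.15 ± 0.19, at 5.72 to 7.58 CPM. Combined and PCB 126 mice differed by a log2FC of -0.04 ± 0.19 (adjusted p = 0.910 in edgeR).

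Gna15 had 0.209 to 0.526 CPM in control and 0.145 to 0.616 CPM in combined mice, overlapping throughout. Its log2FC was -0.32 ± 0.41 with the combined exposure, -0.58 ± 0.41 with PCB 126 and -0.01 ± 0.40 with Aroclor, and differences of this size were not detectable at a depth of 3 to 18 counts.

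Of the Gi family, Gnai3, which encodes an inhibitory subunit found in many tissues, had 55.2, 59.9, 83.7, 87.9 and 82.0 CPM in HFD control and 111, 112, 94.8, 111 and 111 CPM in the combined mice, with no overlap. The log2FC was 0.55 ± 0.15 (adjusted p = 0.00877 in edgeR), against 0.32 ± 0.15 with Aroclor and 0.12 ± 0.15 with PCB 126. In the control group, replicates 1 and 2 were at 55.2 and 59.9 CPM and the other 3 were at 82.0 to 87.9 CPM, and in the PCB 126 group replicates 3 and 4 at 59.9 and 64.6 CPM stood apart from the other 3 at 90.3 to 95.1 CPM.

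Gnai2, the other abundant inhibitory subunit gene, had 93.7, 84.4, 85.6, 58.9 and 75.8 CPM in HFD control and 75.6, 58.4, 70.0, 45.9 and 49.8 CPM in combined mice. The groups overlapped through control replicate 4, which was lower than 2 of the combined mice. The log2FC was -0.41 ± 0.13 (adjusted p = 0.0166 in edgeR), against -0.02 ± 0.13 with Aroclor and -0.10 ± 0.13 with PCB 126. The ratio of Gnai3 to Gnai2 was 0.589 to 1.49 in control mice and 1.35 to 2.42 in combined mice, with 0.929 to 1.33 in Aroclor mice and 0.807 to 1.29 in PCB 126 mice. Gnai3 counts exceeded Gnai2 counts in 2 of 5 control, 4 of 5 Aroclor, 3 of 5 PCB 126 and 5 of 5 combined mice. Gnai1, the least abundant of the 3 inhibitory genes, varied widely between mice of a group, at 5.64 to 13.5 CPM in control and 8.45 to 17.4 CPM with the combined exposure, and its log2FC of 0.50 ± 0.28 did not pass (adjusted p = 0.184 in edgeR).

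Gnas, which encodes the subunit that couples the glucagon receptor to adenylyl cyclase, had 623, 581, 519, 459 and 473 CPM in HFD control and 408, 413, 451, 373 and 387 CPM in combined mice. The highest combined mouse was below the lowest control mouse, and the log2FC was -0.39 ± 0.10 (adjusted p = 0.00508 in edgeR). It was -0.20 ± 0.10 with Aroclor (437 to 491 CPM, adjusted p = 0.282 in edgeR) and -0.12 ± 0.10 with PCB 126 (449 to 547 CPM). Gnas was the most abundant member in CPM, so its decrease was the largest in counts of the family. Its share of the summed FPKM of the 10 members was 30.7% ± 3.87 (SD, n = 5) in HFD control and 25.7% ± 1.28 with the combined exposure, while that of Gnai3 was 14.7% ± 3.45 and 23.5% ± 3.16.

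The G12/13 family genes also split. Gna13 had 24.7, 26.0, 27.2, 33.7 and 36.2 CPM in HFD control and 40.6, 37.9, 38.1, 38.5 and 37.9 CPM in combined mice, which lay close together and above each control mouse. Its log2FC was 0.39 ± 0.13 (adjusted p = 0.0274 in edgeR), against 0.26 ± 0.13 with Aroclor and 0.12 ± 0.13 with PCB 126. Gna12 had 138, 133, 165, 107 and 151 CPM in HFD control and 114, 119, 126, 65.9 and 108 CPM in combined mice. The groups overlapped, with combined replicate 4 far below the others, and the log2FC was -0.38 ± 0.14 (adjusted p = 0.0398 in edgeR), against 0.06 ± 0.14 with Aroclor and 0.05 ± 0.14 with PCB 126. Without combined replicate 4 the log2FC of Gna12 was -0.25 (adjusted p = 0.0869 in edgeR), and it also missed the threshold without control replicate 1, 3 or 5 or combined replicate 5. Gna12 shares 456 exon bases with Amz1 on the opposite strand and Gnas shares 1469 with Gm20721, but these neighbours had 519 and 229 counts over all libraries against 79347 and 281410, and whether strand was used in counting is not given in the sources used here.

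Against HFD control, 4 of 10 members had no overlap between the 5 combined and the 5 control mice (Gnaq, Gnai3 and Gna13 higher, Gnas lower), and 18.8% of all genes tested did not overlap. For Aroclor and PCB 126 the count was 0 of 10 members, and 2.94% and 2.14% of all genes. By unadjusted p under 0.05, 3 members passed with Aroclor (Gnaq and Gnai3 higher, Gnas lower) and 1 with PCB 126 (Gna14), where 17.2% and 14.7% of all genes passed. DESeq2 called none of the members in these comparisons, and 0.87% and 2.06% of all genes.

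Whether the combined exposure differed from each single one was tested in the same fit. Against PCB 126, 2 of 10 members passed, both lower, where 16.7% of all genes passed and 11% passed as lower. These were Gna11 (log2FC -0.45 ± 0.15, adjusted p = 0.0404 in edgeR) and Gna12 (log2FC -0.43 ± 0.14, adjusted p = 0.0382 in edgeR). Without PCB 126 replicate 3, for one, the adjusted p was 0.0742 and 0.0789 in edgeR. The count was 0 without PCB 126 replicate 2, 3 or 4 or combined replicate 4 or 5, 1 without PCB 126 replicate 5 or combined replicate 2, 4 without PCB 126 replicate 1 and 6 without combined replicate 3. The calls over all genes moved with it, from 2589 to between 245 and 2463 in the fits with 0 members, 2067 and 1854 in those with 1, 3403 in that with 4 and 3193 in that with 6. Gnaq, Gnai3 and Gna13 had a log2FC of 0.36, 0.43 and 0.27 and Gnai2 and Gnas one of -0.31 and -0.26, none past the threshold. The combined and PCB 126 mice overlapped for all 10 members, where 9.9% of all genes did not overlap. Against Aroclor, 0 of 10 members passed, where 0.412% of all genes passed. An unadjusted p under 0.05 was found for 3 of 10 members and 23.4% of all genes. Gna11, Gnai2 and Gna12 had a log2FC of -0.42 ± 0.15, -0.39 ± 0.13 and -0.44 ± 0.14, and the other 5 members called against HFD control had 0.20 (Gnaq), 0.39 (Gna14), 0.23 (Gnai3), 0.13 (Gna13) and -0.18 (Gnas). Gna12 was lower in each combined mouse (65.9 to 126 CPM) than in each Aroclor mouse (136 to 155 CPM), the single member without overlap in this comparison, where 6.76% of all genes did not overlap. DESeq2 called 3 of the members here and 6 against PCB 126, where it called 8.65% and 23.8% of all genes. Without combined replicate 3, edgeR called 2 members here, and 1011 genes in all.

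The interaction asks whether the change with both compounds differs from the sum of the single changes on the log2 scale. No member passed (0 of 10), nor did any of the 15522 genes in edgeR (0% called, 1846 at an unadjusted p under 0.05), and DESeq2 called 1 gene, which is no member. The members with the lowest unadjusted p were Gna12, with an interaction log2FC of -0.49 ± 0.19 (adjusted p = 0.346 in edgeR), and Gna11, with -0.47 ± 0.21 (adjusted p = 0.382 in edgeR). For Gnaq the interaction was 0.04 ± 0.19, for Gna14 -0.19 ± 0.27, for Gnai3 0.11 ± 0.21, for Gnai2 -0.29 ± 0.18, for Gnas -0.06 ± 0.14 and for Gna13 0.01 ± 0.18.

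Base composition moved with the exposure across all genes, and the members' changes were read against it. In each library the deviation of log2 CPM from the gene's mean was regressed on GC content, and the slope was 0.22 ± 0.13 per 10 points of GC content in HFD control (SD, n = 5), 0.00088 ± 0.071 with Aroclor, 0.099 ± 0.18 with PCB 126 and -0.32 ± 0.16 with the combined exposure. Slopes of control mice ran from 0.079 to 0.40 and those of combined mice from -0.52 to -0.11, without overlap. Among genes of at least 1 CPM, the median log2FC with the combined exposure was 0.36 for a GC content of 40% to 45%, where Gnai3 and Gnai1 lie, and 0.11 for 45% to 50%, where Gna13, Gnaq and Gna14 lie. It was -0.55 for 55% to 60%, where Gnai2, Gna11, Gnas, Gna12 and Gna15 lie. Of the genes in the first of these bands 49.2% were called higher. Of those in the second 17.6% were called higher and 6.4% lower, and of those in the last 62.2% were called lower. The values of -0.38 to -0.41 of Gnai2, Gna11, Gnas and Gna12 were thus closer to 0 than the median of their band, at whose lower edge Gnai2 lies, and so was that of Gna15 (-0.32). The 5 low-GC members had values farther from 0 than the median of their band, from 0.39 (Gna13) to 0.55 (Gnai3 and Gna14).

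**Figure D2:**
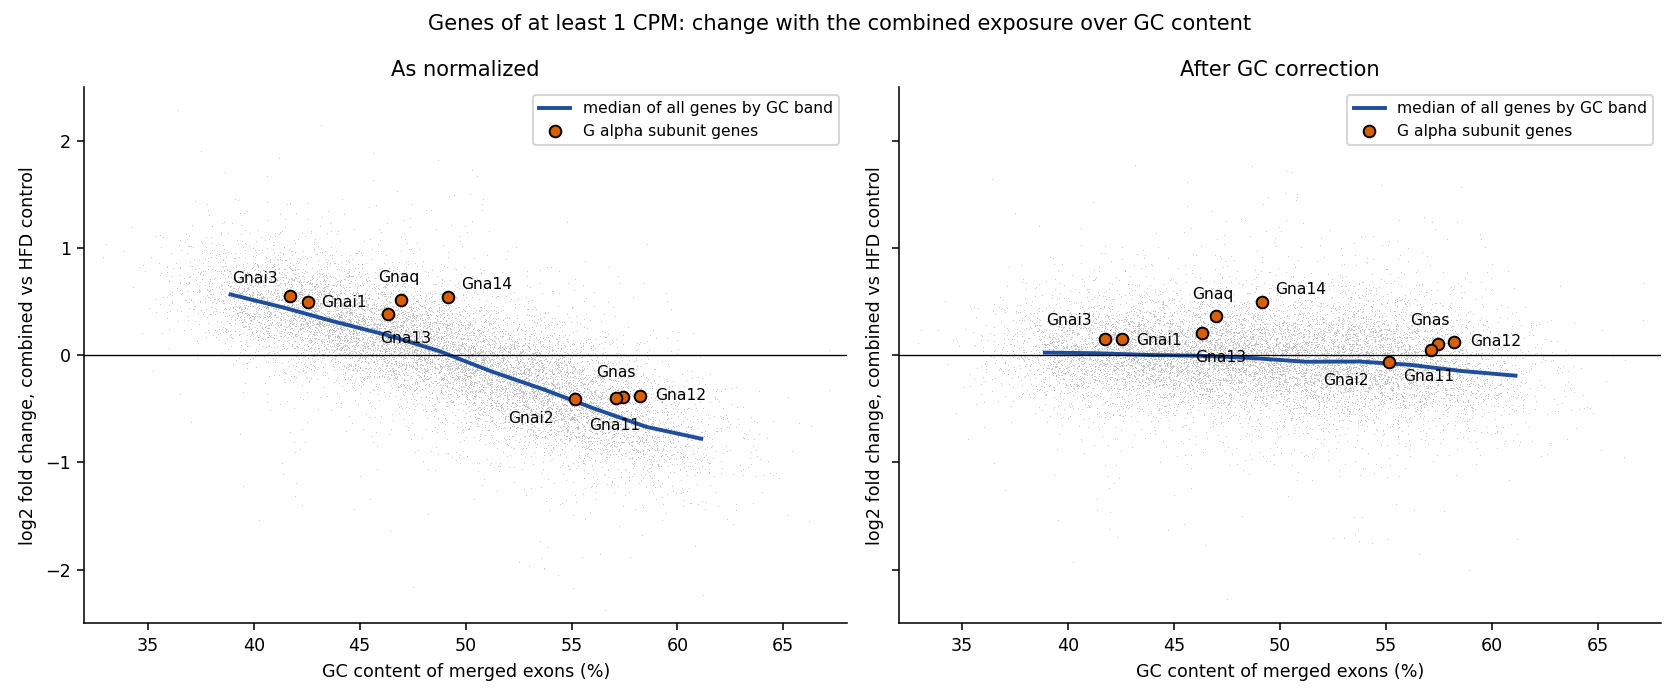
Log2FC of the combined exposure against HFD control (vertical axis, 5 mice per group) over the GC content of merged exons in percent (horizontal axis), before and after GC correction. Grey points are genes of at least 1 CPM within the axis limits, the line is their median by GC band, and 9 members are marked (Gna15 is below 1 CPM). Before correction the members follow the fall of the line from left to right, and after it Gna14 (0.50) and Gnaq (0.36) are highest.

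A GC correction was then made by smoothing the deviations over GC content in each library and entering the smooth as an offset. After it 0 of 10 members passed in the combined exposure, where 5.35% of all genes passed. An unadjusted p under 0.05 was found for 2 of 10 members and 22.8% of all genes. Gnaq had a corrected log2FC of 0.36 ± 0.12 (adjusted p = 0.0772 in edgeR) and Gna14 one of 0.50 ± 0.19 (adjusted p = 0.110 in edgeR). Gna13 was at 0.21 ± 0.12, Gnai3 at 0.16 ± 0.11 and Gnai1 at 0.15 ± 0.28. The values of the members on the high-GC side turned from below to above 0, to 0.05 ± 0.14 for Gna11, 0.10 ± 0.08 for Gnas, 0.12 ± 0.14 for Gna12 and 0.19 ± 0.41 for Gna15, except that of Gnai2, which was -0.06 ± 0.12. A trend remained in all genes of at least 1 CPM after the correction, with a median log2FC of -0.013 for a GC content of 45% to 50% and -0.11 for 55% to 60%. The opposite directions of Gnaq and Gna11, of Gna13 and Gna12 and of Gnai3 and Gnai2 therefore hold without this correction and were not seen as calls with it. With the slope of each library as a covariate in place of the offset, no member passed and the values of Gnaq, Gnai3 and Gna13 also changed sign, to -0.19, -0.21 and -0.15. That of Gna14 fell to 0.035 (adjusted p = 0.983 in edgeR). The smoothed correction did not lower the value of Gna14 with PCB 126, which was 0.63 ± 0.19 (adjusted p = 0.137 in edgeR). With the slope covariate the value of Gna14 with PCB 126 was 0.49 (adjusted p = 0.146 in edgeR). The part of base composition in the members' differences cannot be told apart from that of the exposure, because the slopes themselves separate the combined from the control mice.

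**Figure D3:**
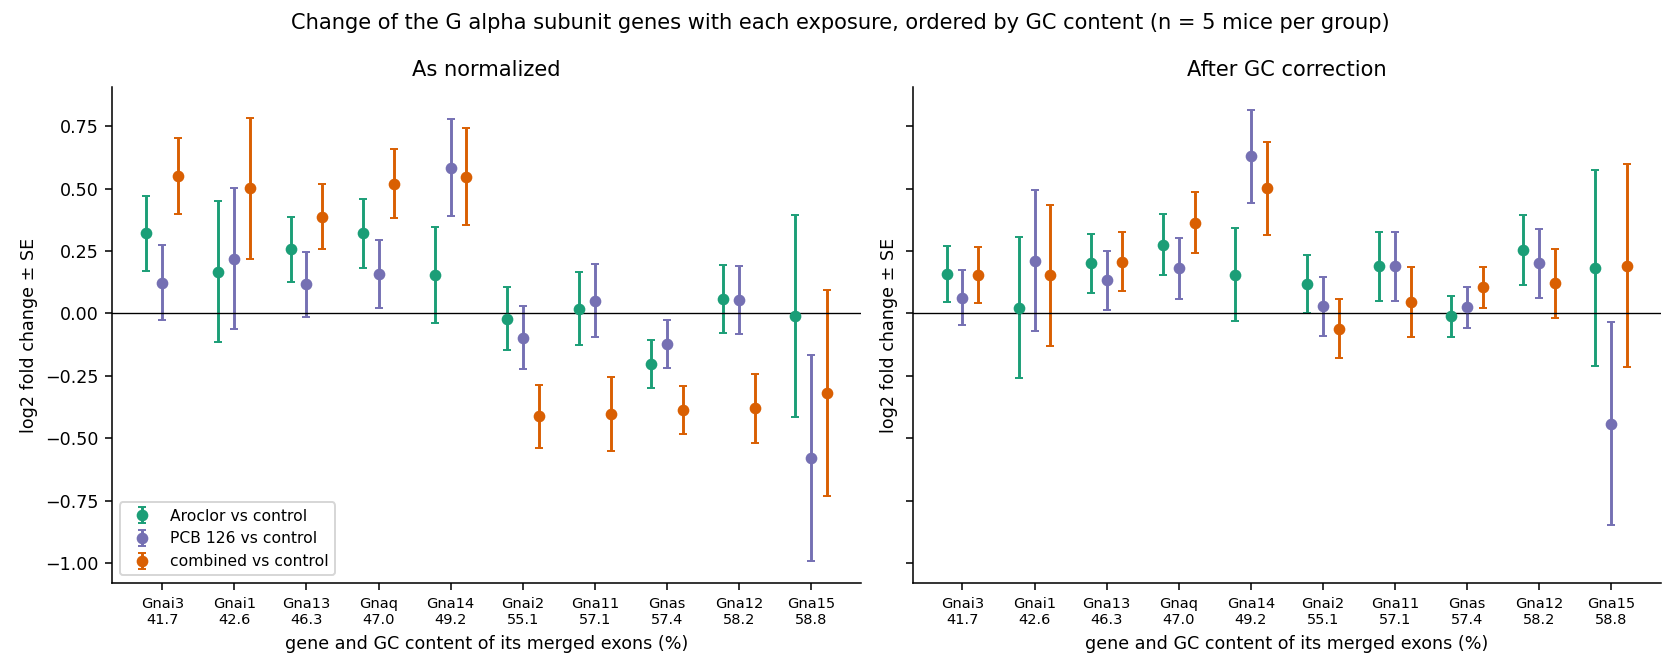
Log2FC ± SE of each member with each exposure against HFD control (vertical axis), with genes ordered from low to high GC content (horizontal axis, percent), before (left) and after (right) GC correction, n = 5 mice per group. With the combined exposure the 5 low-GC members lie above 0 and the 5 high-GC members below 0 on the left, while on the right Gnai2 alone lies below 0.

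The ratios of paralogs, which need no scaling between libraries, ran with these slopes in part of the mice. The HFD control mouse with the lowest slope (replicate 4, 0.079) had the highest ratio of the group for Gnaq to Gna11 (0.598), Gnai3 to Gnai2 (1.49) and Gna13 to Gna12 (0.314). The combined mouse with the steepest negative slope (replicate 4, -0.52) likewise had the highest ratios of its group, at 1.24, 2.42 and 0.584. The combined mouse with the slope nearest to 0 (replicate 3, -0.11) had the lowest ratios of its group, at 0.533, 1.35 and 0.302. Other mice departed from this order. Control replicate 1, with the highest slope (0.40), had a ratio of Gna13 to Gna12 of 0.179, above the 0.165 of replicate 3. Aroclor replicate 1 had the lowest slope of its group (-0.090) and a ratio of Gna13 to Gna12 of 0.236, near the low end of its group (0.235 to 0.272). PCB 126 replicate 1 had the lowest slope of its group (-0.092), but its ratio of Gnai3 to Gnai2 was 1.16, below the 1.29 of replicate 5. For Gnai1 to Gnai2, combined replicate 4 was at 0.232, below replicates 2 and 5 at 0.298 and 0.292. On GC-corrected values, the mean log2 ratio of Gnaq to Gna11 was -1.02 ± 0.23 (SD, n = 5) in control and -0.71 ± 0.25 in combined mice, against -1.27 ± 0.34 and -0.33 ± 0.47 without correction.

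**Figure D4:**
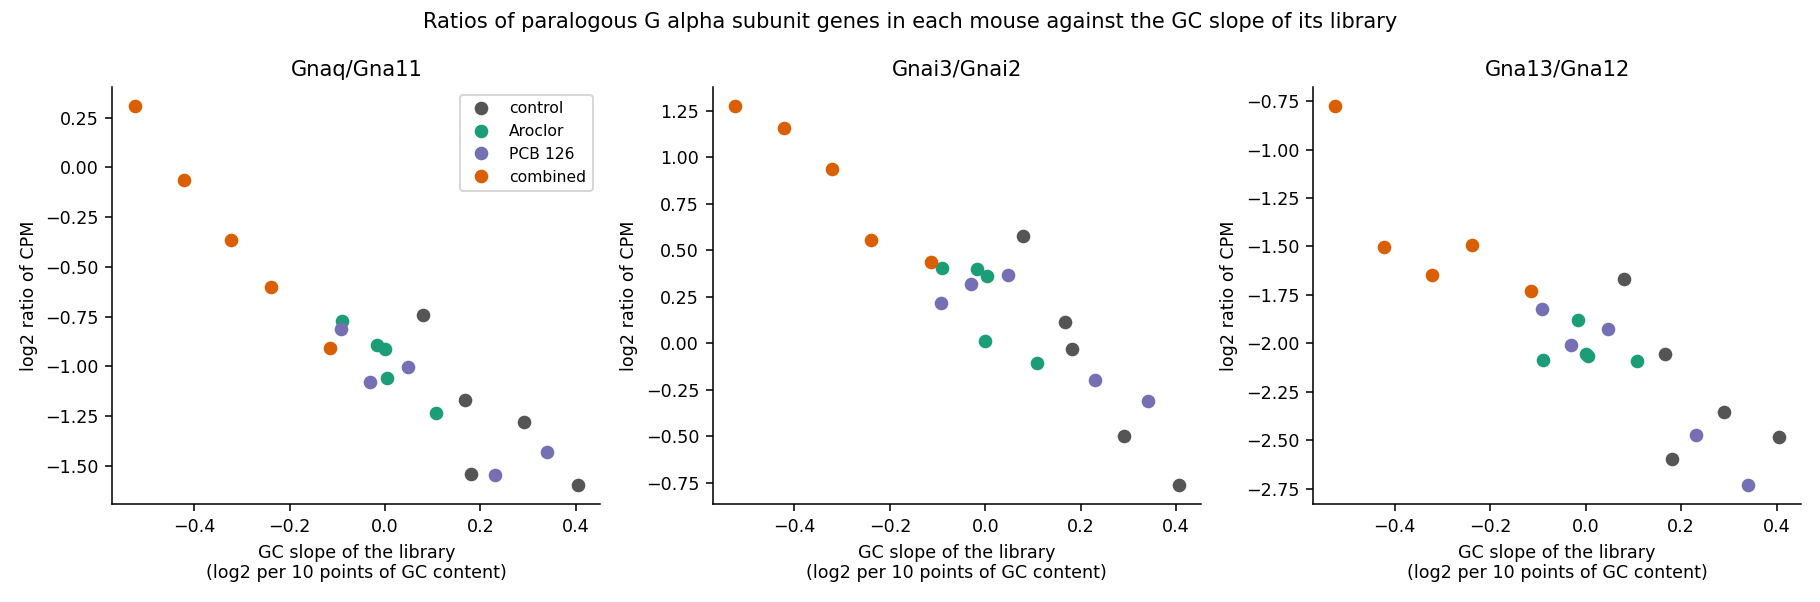
Log2 ratio of CPM between paralogous members in each of 20 mice (vertical axes) against the GC slope of its library in log2 units per 10 points of GC content (horizontal axes), coloured by group. Combined mice lie at the upper left, with Gnaq/Gna11 from -0.91 to 0.31, and control mice mostly at the lower right, from -1.60 to -0.74.

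Genes that work with the alpha subunits were read from lists by role, with the same test for the combined exposure against HFD control. In this comparison 32.8% of all genes tested passed, 15.8% as higher and 17% as lower, and 5.35% passed after GC correction. The counts of each list below stand against these shares. Of 31 tested receptors of liver that couple to G proteins, 6 rose, 1 fell and 24 did not pass, with a median log2FC of 0.15. Gcgr, the glucagon receptor, fell from 239 ± 51.9 to 128 ± 33.5 CPM (log2FC -0.90, adjusted p = 0.00227 in edgeR). Gnas, with which it signals, was lower as well (log2FC -0.39). After GC correction Gcgr was at -0.40 and Gnas at 0.10, neither called, and whether the 2 changes are related was not tested. Ednrb, an endothelin receptor, rose from 7.03 ± 0.955 to 11.9 ± 1.61 CPM (log2FC 0.76), and Adra1a, an alpha-1 adrenergic receptor that signals through Gq, rose from 5.77 ± 0.731 to 7.97 ± 0.789 CPM (log2FC 0.47). Gcgr has a GC content of 58.2%, and none of the 31 receptors passed after GC correction.

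Of 16 beta and gamma subunit genes, 1 rose and 2 fell. Gnb2, a beta subunit gene, fell from 59.7 ± 10.9 to 27.4 ± 8.76 CPM (log2FC -1.13, adjusted p = 0.00104 in edgeR) and was still called lower after GC correction (log2FC -0.56, adjusted p = 0.0356 in edgeR). Gng5, a gamma subunit gene, fell by a log2FC of -0.51 and was called after the correction as well (log2FC -0.87, adjusted p = 0.0247 in edgeR), although its GC content of 43.0% is on the side where most called genes rose. Gng12 rose (log2FC 0.62) and was not called after correction (0.39). Of the 5 other alpha subunit genes tested, Gnat1 passed, with 5.37 ± 1.33 CPM in control and 2.48 ± 0.433 in combined mice (log2FC -1.11), and it was also called lower after GC correction (log2FC -0.86, adjusted p = 0.0324 in edgeR).

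On the Gq side, 2 of 10 effector genes rose, 1 fell and 7 did not pass, where 32.8% of all genes passed. Plcb1, a phospholipase C beta gene, rose from 11.1 ± 3.25 to 23.3 ± 4.07 CPM (log2FC 1.07, adjusted p = 0.00188 in edgeR), and Itpr1, which encodes an inositol trisphosphate receptor of the calcium store, rose from 37.7 ± 5.15 to 63.3 ± 9.48 CPM (log2FC 0.75, adjusted p = 0.00116 in edgeR). Both were also called higher after GC correction, at a log2FC of 0.73 and 0.62. Plcb3 fell (log2FC -0.53) and was at -0.08 after the correction. Of the genes listed by their role, Plcb1 and Itpr1 were thus called higher with both normalizations. Gnaq was called higher with the first alone, and a link between these genes was not tested.

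On the side of Gs and Gi, 2 of 17 effector genes rose, 4 fell and 11 did not pass. The catalytic subunit genes of protein kinase A moved in opposite directions, with Prkacb (GC content 44.3%) at a log2FC of 0.60 and Prkaca (55.1%) at -0.36, and after GC correction they were at 0.32 and -0.00069, with no call. Prkar2a, a regulatory subunit gene, rose by a log2FC of 0.55, and none of the 17 was called after correction. Of 6 genes on the G12/13 side, 2 rose, among them Rock1, which encodes a protein kinase of the cytoskeleton (log2FC 0.79), 1 fell, Arhgef1, an exchange factor gene (-0.93), and 3 did not pass, and none was called after correction. Of 20 regulators and chaperones of alpha subunits, Rgs3, which speeds GTP hydrolysis, and Ric8a, a chaperone of alpha subunits, fell (log2FC -1.25 and -0.46), Gpsm2 rose (0.45) and 17 did not pass. None of these 20 genes was called after correction. In all these lists no gene was called with Aroclor or with PCB 126 alone, where 0% and 0.116% of all genes were called.

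Markers of the cell types that a liver sample can hold were summed in each library. The stellate cell list (5 genes) ran from 135 to 265 CPM in HFD control and from 271 to 346 CPM in combined mice, without overlap, with 3 genes called higher and 1 lower and a median GC content of 44.9%. Of all single genes tested, 18.8% did not overlap in this comparison. The most abundant stellate gene was Dcn (GC content 37.8%), at 131 ± 30.4 CPM in control and 198 ± 20.8 in combined mice, while Des fell (log2FC -1.38). The median log2FC of the stellate list was 0.45, and 0.08 after GC correction with 0 genes called. The Kupffer cell and macrophage list (7 genes) ran from 182 to 422 and from 246 to 326 CPM, the endothelial list (6 genes) from 99.96 to 205 and from 130 to 162 CPM, and the cholangiocyte list (5 genes) from 66.0 to 74.5 and from 62.9 to 130 CPM. Spp1 made up most of the cholangiocyte sum, at 63.8 ± 2.55 CPM in control and 79.98 ± 25.4 in combined mice. Krt19, Krt7, Sox9 and Epcam had means of at most 2.06 CPM in these groups. The log2FC was 0.33 for Spp1, 0.09 for Epcam, -1.25 for Krt19, -0.82 for Krt7 and -0.15 for Sox9, with no call. In the macrophage list Adgre1, which encodes the F4/80 antigen, was called higher (log2FC 0.82, adjusted p = 0.0248 in edgeR) and the other 6 genes were not called. In the endothelial list Stab2, a scavenger receptor gene of sinusoidal cells, was called lower (log2FC -0.50, adjusted p = 0.00770 in edgeR) and the other 5 were not called. Neither was called after GC correction. Lymphocyte and neutrophil lists summed to at most 10.3 and 6.44 CPM in any library. Of the hepatocyte list 3 of 5 genes were called lower (Apoa1, Ttr and Serpina1c), with a median log2FC of -0.46, and Ttr, the transthyretin gene, was also called lower after GC correction (log2FC -0.88, adjusted p = 0.0259 in edgeR). No list had a marker at 0 in all mice of a group, and the part of cell composition in the members' differences was not tested.

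The genes most like Gnaq and Gna11 over the 20 libraries were named by the root mean square difference of log2 CPM, each gene centred on its own mean, among 8869 genes of at least 5 CPM. For Gnaq they were Efr3a (0.0754), Ube2q2 (0.0778) and Abi1 (0.0814), with a GC content of 41.1%, 47.0% and 39.9%. For Gna11 they were Fam234a (0.0823), Atp9a (0.0835) and Fbxw8 (0.0862), with 54.7%, 58.1% and 57.3%. The genes nearest to Gnaq were thus below the gap in GC content between the members, as Gnaq is, and of those nearest to Gna11, Atp9a and Fbxw8 were above it, as Gna11 is, and Fam234a was within it. On GC-corrected values the nearest to Gnaq were Slmap, Ube2q2 and Dip2c, at 44.6% to 48.9%, and the nearest to Gna11 were Atp9a, Mtmr10 and Lman2, at 58.1%, 45.0% and 50.9%.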

How the data were processed

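The authors deposited a table of raw counts per Ensembl gene for 20 livers. To make the counts, the authors sequenced stranded polyadenylated RNA libraries in 2 runs, checked reads with FastQC 0.10.1, used STAR 2.6 for alignment to GRCm38.p6 and HTSeq 0.10.0 for counting. The run of each library and the annotation release are not given in the sources used here. Library order follows the groups, so that order and exposure cannot be told apart. The label of PCB 126 replicate 2 carries 2 different numbers, and its title was followed. Total counts were 21836506 to 36854887 per library. No 2 libraries of a group agreed within counting error (chi-square of at least 18.7 per degree of freedom).

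Genes with at least 10 counts in total were tested (15522), with TMM normalization and the two-sided quasi-likelihood test of edgeR 4.0.16 (R 4.3.3), a coefficient per group (16 residual degrees of freedom) and Benjamini-Hochberg adjustment at 0.05. Standard errors are the log2FC divided by the root of the F statistic. GC content is that of merged exons in GENCODE M21 (GRCm38, 15516 tested genes), and the correction is a spline with 6 degrees of freedom. Coding sequences are from the same release, and amino acids were only compared, not printed. The procedure was tested on simulated counts, without a GC trend and with the same linear trend in each library of the combined group. The slopes of the real libraries differed within each group, which these counts did not imitate. The members and lists were chosen with earlier results of these data known. All 10 members are named, and of each list up to 3 genes with the smallest adjusted p with the combined exposure. Gene likeness covers the 3 nearest genes. Alternatives were RLE factors, DESeq2 1.42.0, other filters, only the groups compared, a replicate block, other GC corrections and leaving out each mouse.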

Additional observations from a re-analysis of the deposited data

Results flagged for a closer look

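In groups of 5 mice, the highest or lowest mouse was compared with the others for each member and group, 40 sets in all, and chance alone marks about 1 set in 20. In 2 sets the gap to the nearest mouse took more than 0.71 of the range. Gnai3 in the combined exposure had 94.8 CPM in replicate 3, against 111 to 112 CPM in the other 4 mice, which nearly coincided. This mouse also had the GC slope nearest to 0 of its group (-0.11). Gna13 in the combined exposure had 40.6 CPM in replicate 1, against 37.9 to 38.5 CPM in the other 4 mice. Without combined replicate 3 the log2FC of Gnai3 against HFD control was 0.59, and without replicate 1 that of Gna13 was 0.37 (adjusted p = 0.0531 in edgeR), no longer under 0.05.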

How the results depend on the processing

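The 8 members past the threshold with the combined exposure were 7 with RLE factors and 8 with DESeq2, without a filter, with the FPKM filter and with the replicate block. They were 4 with only the groups compared in the fit and 0 with each of the 5 GC corrections, one of them with the replicate block. All genes called in this comparison numbered 5089, against 4143 with only the groups compared and 344 to 1541 with the GC corrections. With RLE factors they numbered 5104, with DESeq2 5620, without a filter 4974 of 17279 tested and with the replicate block 5292. With the FPKM filter, which Gna15 did not pass, they were 4705 of 8995 tested. The 2 members past the threshold against PCB 126 became 6 with DESeq2, 4 with the FPKM filter, 5 with the replicate block and 0 with only the groups compared and with each GC correction. All genes called there went from 2589 to 3697 with DESeq2, 3127 with the replicate block and 3195 of 8995 tested with the FPKM filter. They numbered 1939 with only the groups compared and 0 to 297 with the GC corrections. The 0 against Aroclor became 3 with DESeq2 and 1 with the FPKM filter. All genes called in that comparison went from 64 to 1343 and to 636 of 8995 tested. Against HFD control the single exposures gave 0 members under each alternative, and so did the interaction where it was fitted (it could not be fitted with only 2 groups). The cause of these changes was not tested. Leaving out each mouse in turn gave 3 to 8 members with the combined exposure, 0 to 2 against Aroclor and 0 to 6 against PCB 126. Of same-numbered mice in different groups, 13 of 30 pairs correlated above 0.1 (median 0.050, from -0.26 to 0.74). Of differently numbered mice, 35 of 120 pairs did (median -0.012, from -0.53 to 0.46). That 0 mice correlated best with their own number in each other group is too strict a rule to decide. Whether the numbers pair samples was thus not settled. The block changed no member's call against HFD control, while all genes called went from 0 to 26 with Aroclor and from 18 to 101 with PCB 126.

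These signs of log2FC changed, over the 10 members against HFD control and over the 8 called with the combined exposure elsewhere. For Aroclor, Gna11 (0.019) turned to -0.0078 with RLE factors, -0.0077 with DESeq2 and -0.0041 without a filter. Combined against PCB 126, Gna14 was 0.0093 with the FPKM filter. With a covariate for the GC slope of the library the changed signs were for Aroclor Gna14 -0.038, Gna15 0.20 and Gnai2 0.19, for PCB 126 Gnaq -0.0096, Gnai2 0.036, Gnai3 -0.060 and Gna13 -0.018, for combined Gnaq -0.19, Gna11 0.033, Gna15 0.20, Gnai2 0.084, Gnai3 -0.21, Gnas 0.089, Gna12 0.063 and Gna13 -0.15, for combined against Aroclor Gnaq -0.22, Gnai3 -0.23, Gnas 0.094 and Gna13 -0.19, for combined against PCB 126 Gnaq -0.18, Gnai2 0.047, Gnai3 -0.15, Gnas 0.10 and Gna13 -0.13, and for the interaction Gnaq -0.21, Gnai3 -0.17, Gnas 0.11 and Gna13 -0.17. With the GC-smoothed offset the changed signs were for Aroclor Gna15 0.18 and Gnai2 0.12, for PCB 126 Gnai2 0.029 and Gnas 0.025, for combined Gna11 0.047, Gna15 0.19, Gnas 0.10 and Gna12 0.12, for combined against Aroclor Gnai3 -0.0024 and Gnas 0.12, for combined against PCB 126 Gnas 0.079, and for the interaction Gnaq -0.093, Gnai3 -0.066, Gnas 0.090 and Gna13 -0.13. With that offset and the replicate block the changed signs were for Aroclor Gna15 0.19 and Gnai2 0.13, for PCB 126 Gnai2 0.040 and Gnas 0.029, for combined Gna11 0.049, Gna15 0.18, Gnas 0.11 and Gna12 0.12, for combined against Aroclor Gnas 0.12, for combined against PCB 126 Gnas 0.079, and for the interaction Gnaq -0.080, Gnai3 -0.059, Gnas 0.088 and Gna13 -0.12. With an offset over GC content and length the changed signs were for Aroclor Gna15 0.19 and Gnai2 0.11, for PCB 126 Gnai2 0.026 and Gnas 0.013, for combined Gna11 0.026, Gna15 0.21, Gnas 0.022 and Gna12 0.10, for combined against Aroclor Gnas 0.057, for combined against PCB 126 Gnas 0.0088, and for the interaction Gnaq -0.082, Gnai3 -0.052, Gnas 0.044 and Gna13 -0.12. With the GC trend smoothed on genes of at least 1 CPM, chosen after seeing the data, the changed signs were for Aroclor Gna15 0.15, Gnai1 -0.0038 and Gnai2 0.10, for combined Gna11 0.11, Gna15 0.23, Gnas 0.18 and Gna12 0.20, for combined against Aroclor Gnas 0.21, for combined against PCB 126 Gnas 0.20 and Gna12 0.029, and for the interaction Gnaq -0.019, Gnai3 -0.010, Gnas 0.23 and Gna13 -0.053. With 1 mouse left out, signs changed for Aroclor in Gna11 (-0.058 to 0.11), Gna15 (-0.17 to 0.14), Gnai1 (-0.030 to 0.34), Gnai2 (-0.11 to 0.044) and Gna12 (-0.021 to 0.12), for PCB 126 in Gna11 (-0.018 to 0.16) and Gna12 (-0.025 to 0.14), for combined against PCB 126 in Gna14 (-0.15 to 0.083), and for the interaction in Gnaq (-0.037 to 0.11), Gnas (-0.12 to 0.0014) and Gna13 (-0.074 to 0.086). Outside the comparisons with HFD control, Gna15 and Gnai1 were examined with the GC-smoothed offset alone, where Gna15 against Aroclor turned to 0.0079, Gnai1 against PCB 126 to -0.058 and Gnai1 in the interaction to -0.081. Gna15, at 3 to 18 counts per library, did not pass the FPKM filter.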
